A study of Mus musculus with 8 samples.

Results

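Genes that take up, store, release and sense iron were followed in mouse embryos before implantation, at the 8-cell stage and at the blastocyst stage. The set held 10 genes, chosen by name: the transferrin receptor Tfrc, transferrin (Trf), the ferritin chains Fth1 and Ftl1, the iron transporters Slc11a2 and Slc40a1, the iron regulatory proteins Aco1 and Ireb2, the haem-degrading enzyme Hmox1 and the iron sensor Fbxl5. For 8 of the 10 the array had at least 1 probe set listed under that gene symbol alone, 17 probe sets in all, out of 18193 genes with such a probe set. Trf and Ftl1 share each of their probe sets with another listed gene, so no value is given for them. The array also carries 3 control probe sets for the 3', middle and 5' portions of the Tfrc messenger, which were taken in by their name. The selection of these genes was made with stage differences on these same 8 arrays already known, so the differences of the members and of the Tfrc controls are a description. No p-value is given for them, and the number of members called is printed only beside the share of all genes called.

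Iron reaches most cells bound to transferrin, which the transferrin receptor carries into endosomes, where the transporter SLC11A2 (DMT1) passes the iron to the cytosol. Surplus iron is stored inside ferritin shells built from heavy (FTH1) and light (FTL1) chains, and ferroportin (SLC40A1) is the exporter. The iron regulatory proteins IRP1 (Aco1) and IRP2 (Ireb2) bind iron-responsive elements (IREs) in messengers: in iron-poor cells they stabilise the Tfrc messenger and block translation of ferritin, and FBXL5 marks IRP2 for destruction when iron is plentiful.

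Each stage had 4 arrays of whole wild-type B6D2F1 embryos, from matings within that hybrid. 8-cell embryos were taken at embryonic day 2.5, 66 h after human chorionic gonadotropin (hCG, the hormone that times ovulation), and blastocysts at day 4.5, 120 h after hCG. All had been collected as zygotes and grown in KSOM medium under reduced oxygen, so embryos grown in the mother are not represented. Nothing in the labels tells if each array had embryos of its own, so any p-value here measures the spread among these samples alone, and that spread may be technical. Because whole embryos were read, fewer cells of a type and less RNA per cell cannot be told apart, and since each array was scaled to the same mean, signals are shares of an array and not amounts per embryo.

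The arrays were of even quality within a stage, while the 3' minus 5' differences of control probe sets, given below, differed between the stages. Their median signals lay between 47.1 and 56.0, and over 13274 tested genes arrays of a stage correlated at 0.977 or more and arrays of different stages at 0.752 to 0.780. All 6 trophectoderm and all 6 primitive endoderm markers were called higher in blastocysts, and all 4 measured 8-cell stage markers lower. Among them Elf5, Sox17, Lama1, Omt2b and Oosp1 exceeded an array's 40th percentile only at the stage where they were high, and were tested through it. Of 5 epiblast markers 4 were called higher and 1, Pou5f1, lower. Their summed signal was 9214 to 10046 in 8-cell embryos and 9139 to 12309 in blastocysts. Of 6 measured red cell markers, 1 was above the 40th percentile of every 8-cell array and 2 above that of every blastocyst array, and the summed signal of the list was 186 to 469 and 159 to 314. Of 6 measured cumulus and granulosa cell markers 1 was above that level on every array of each stage, with sums of 197 to 353 and 185 to 230. The markers above it on every array were Hba-a2 and Foxl2, both called lower in blastocysts, and the red cell marker Klf1 was called higher. Hba-a1 read 8.80 to 23.8 in 8-cell embryos and 21.5 to 48.6 in blastocysts and was not tested. The part of such cells in the results was not tested. The number of arrays limits the precision.

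Signals for the uptake genes Tfrc and Slc11a2 were lower in blastocysts, signals for the exporter gene Slc40a1 and for Hmox1 were higher, and those of ferritin heavy chain, both iron regulatory proteins and Fbxl5 had stage means less than 1.5 times apart on the brightest probe set of each gene, though another probe set of Aco1 was 2.58 times higher in blastocysts. In the fit over all tested genes 4 of the 8 measured members were called higher (Slc40a1, Ireb2, Hmox1 and Fbxl5), 3 lower (Tfrc, Slc11a2 and Fth1) at an adjusted p under 0.05 by limma, and Aco1 was not called. In the fit to all probe sets Ireb2 was not called either. The members' differences and errors below come from the fit to all probe sets, as do those of further probe sets of other iron genes. For the brightest probe sets of those other genes, errors and calls come from the fit over tested genes. Over all 13274 genes 71.7% were called, 37.5% higher and 34.2% lower, and nothing is read from the members' count beside those shares. Of the members' 17 probe sets, 14 had stages whose values did not overlap, 6 higher and 8 lower in blastocysts, against 42.6% of the 45037 probe sets that are not controls. That share has no filter on dim values, while none of the members' probe sets was under the 40th percentile on every array. Several probe sets also read the same gene, so nothing is read from this count either. Every difference is the blastocyst mean less the 8-cell mean of log2(signal + 16), a scale that understates the change of dim probe sets, and SE is its standard error.

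**Figure D1:**
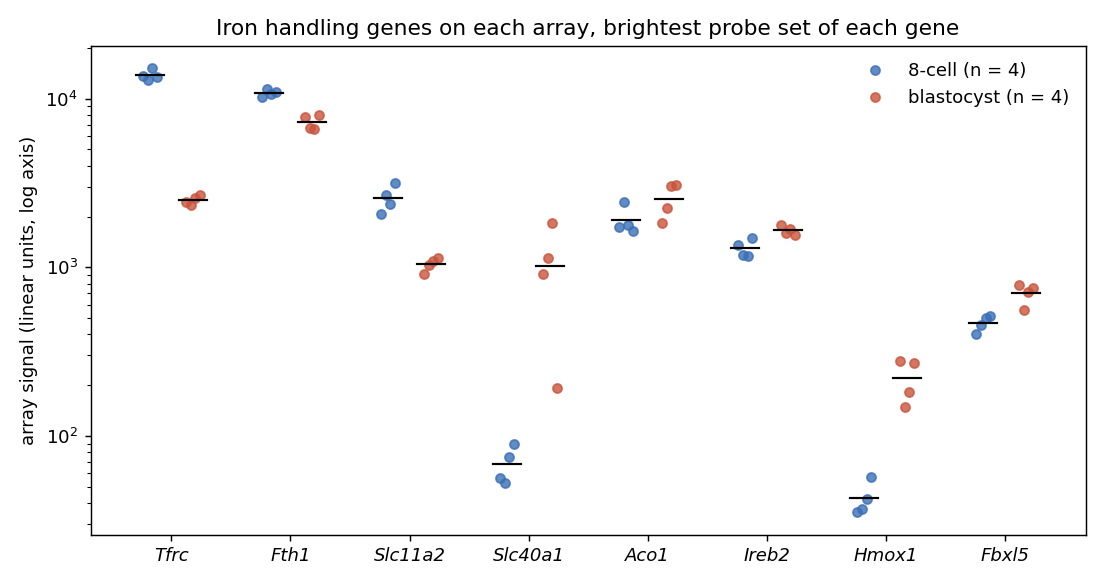
Signal of each iron handling gene on the 4 arrays of 8-cell embryos (blue) and of blastocysts (red), brightest probe set of each gene, on a log axis; black bars are means. Tfrc and Slc11a2 lie lower in every blastocyst array, Slc40a1 and Hmox1 lie higher, and Aco1 overlaps.

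Tfrc, which encodes the receptor for transferrin-bound iron, had the probe sets with the largest differences of the set. Its gene lies at chr16:32608896-32632794 (GRCm38.p6). The 253 bases that end just past its first annotated start are shown because Tfrc is the member on which the results turn. The capitals mark ACGTG, the core to which hypoxia-inducible factors bind, with 2 bases before the start and 3 from it (chr16:32608646-32608898, plus strand, RefSeq sequence of GRCm38.p6).
Tfrc: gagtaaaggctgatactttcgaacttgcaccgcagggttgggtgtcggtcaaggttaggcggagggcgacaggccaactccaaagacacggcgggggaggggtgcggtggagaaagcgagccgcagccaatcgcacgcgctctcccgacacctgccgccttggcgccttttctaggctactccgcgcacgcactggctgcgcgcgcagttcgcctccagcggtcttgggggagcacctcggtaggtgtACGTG

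The motif ACGTG, read on both strands, occurs in 19.6% of the 32851 windows of the same kind, which run from 250 bases before to 50 bases after a start. Windows were at hand for 5 members, 7 windows in all, for Tfrc, Fth1, Ftl1, Aco1 and Ireb2. Among these it occurs in both windows of Tfrc, which overlap and hold the same copy. TGACNNNGC, the core of the antioxidant response element, occurs in 12.4% of all windows and in none of these 7. A match is a run of letters and not a binding site.

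The brightest Tfrc probe set, 1452661_at, read 13565, 12920, 15179 and 13490 on the 8-cell arrays. On the blastocyst arrays it read 2454, 2353, 2570 and 2691. Every blastocyst array was far below every 8-cell array, and the arrays of a stage stood close together. The means were 13788 ± 971 and 2517 ± 146 (SD, n = 4 each), a ratio of 5.48 and a log2 difference of -2.45 (SE 0.13). Of the 13274 tested genes, 565 had a lower difference, which puts Tfrc at the 4.26th percentile.

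The probe sets of Tfrc were all lower in blastocysts but differed widely in how much. Probe set 1422966_a_at read 7220, 8725, 8896 and 7038 in 8-cell embryos. In blastocysts it read 102, 91.0, 114 and 138, so that this probe set was 71.7 times lower by the means and by log2 -5.98 (SE 0.17). The third, 1422967_a_at, went from 549 ± 161 to 31.1 ± 11.4 (SD, n = 4 each; -3.57, SE 0.25), and 2 of the 4 blastocyst arrays were above the 40th percentile of their array (28.3 to 35.7 over the 8 arrays). Thus over the gene and control probe sets the ratio of the stage means ran from 5.48 to 71.7. Within an array, 1452661_at stood above 1422966_a_at by 0.80 ± 0.17 log2 units in 8-cell embryos and by 4.33 ± 0.14 in blastocysts (SD, n = 4 each), so the 2 probe sets did not keep 1 ratio between the stages. These pairs were compared after their values were seen. Where each of the 2 lies on the messenger was not analysed here, and whether they read different transcripts was not tested.

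The control probe sets for Tfrc, meant to show how far labelling reaches along a messenger, gave the same direction. The 3' control read 3217, 4331, 3985 and 3176 in 8-cell embryos. In blastocysts it read 52.6, 68.2, 36.0 and 53.9, with a log2 difference of -5.76 (SE 0.19). Its ratio of means, 69.8, was near that of 1422966_a_at and not that of the brightest probe set. The middle control went from 319 ± 74.5 to 12.3 ± 6.89 and the 5' control from 122 ± 28.8 to 7.37 ± 4.03 (SD, n = 4 each). On no blastocyst array did either of them exceed the 40th percentile, so their differences (-3.57 and -2.55) are limited from below by the dim end of the array and by the added 16.

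**Figure D2:**
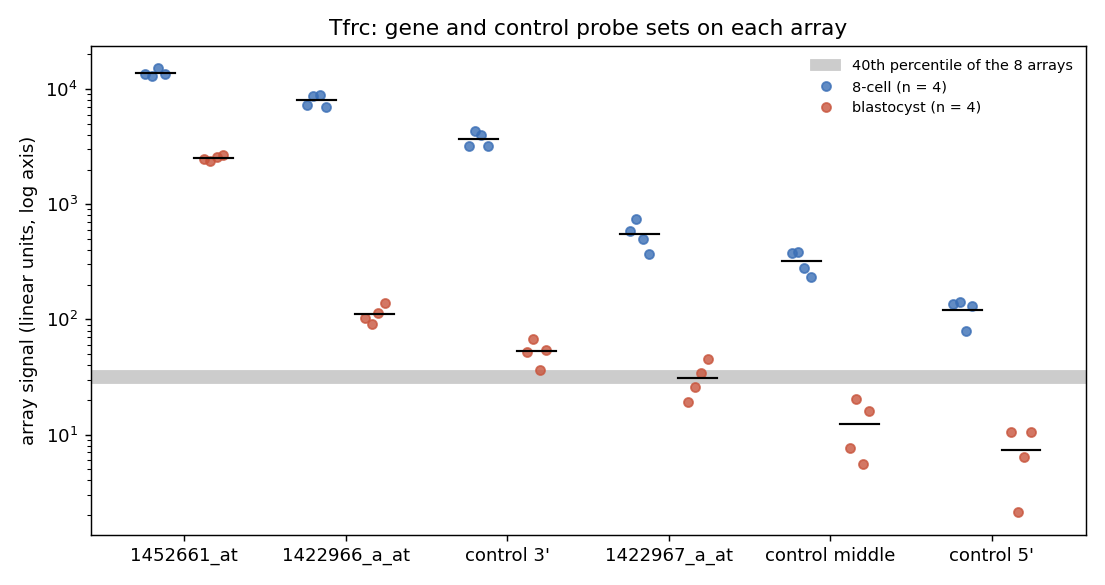
Signal of the 3 gene probe sets and 3 control probe sets of Tfrc on each array, log axis, with means as black bars and the range of the arrays' 40th percentiles as a grey band. Blastocyst signals of 1452661_at stay near 2517 while those of the 3' control lie near the band, at 36.0 to 68.2.

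The 3' minus 5' difference of the Tfrc controls within an array is made from the same control levels, and it is given as a description. It was 4.42, 4.78, 5.39 and 4.45 log2 units in 8-cell embryos and 1.37, 2.22, 1.22 and 1.40 in blastocysts. The stages did not overlap, and the means of 4.76 ± 0.45 and 1.55 ± 0.45 (SD, n = 4 each) differed by -3.21. The 3' minus middle difference went from 3.48 ± 0.33 to 1.29 ± 0.18, and the middle minus 5' difference from 1.28 ± 0.36 to 0.26 ± 0.52. The middle and 5' signals were at the dim end of every blastocyst array. The part of that dim end in the change of both differences from the 3' end was not tested. For the controls of Actb and Gapdh the same 3' minus 5' measure was 2.42 and 2.32 in 8-cell embryos and 0.82 and 1.36 in blastocysts. Thus the measure was larger in 8-cell embryos for Tfrc, Actb and Gapdh alike, with stages that did not overlap. The part of this unevenness along the messenger in the differences of Tfrc, or of any other gene here, was not tested.

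Slc11a2 encodes the divalent metal transporter that moves iron out of the endosome after Tfrc has brought it in. Its brightest probe set, 1426441_at, read 2075, 2676, 2365 and 3146 in 8-cell embryos. In blastocysts it read 911, 1036, 1097 and 1140. No blastocyst array reached the lowest 8-cell array, and the log2 difference was -1.27 (SE 0.17), from 2565 ± 458 to 1046 ± 99.3 (SD, n = 4 each). The other 3 probe sets were lower by more. 1452078_a_at went from 3868 ± 621 to 673 ± 114 (-2.50, SE 0.18), 1417584_at from 794 ± 138 to 152 ± 13.9 (-2.26, SE 0.16) and 1441709_at from 332 ± 28.0 to 96.9 ± 9.73 (-1.63, SE 0.14). Thus each of the 4 probe sets had stages that did not overlap, and the ratio of means ran from 2.45 to 5.75. The messenger is known in forms with and without an IRE, and which form each probe set reads was not analysed here.

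Slc40a1, encoding ferroportin, the exporter of cellular iron, stood highest among the members by its difference. Probe set 1417061_at read 56.1, 52.2, 74.5 and 89.9 in 8-cell embryos. In blastocysts it read 907, 1129, 1830 and 192. The stages did not overlap, but blastocyst replicate 4 was far below the other 3. The difference was 3.27 (SE 0.57), and 3.92 without that array. Probe set 1448566_at gave 29.5, 6.30, 22.0 and 25.1 in 8-cell embryos and 407, 420, 572 and 135 in blastocysts (3.33, SE 0.41). It put the same array lowest, and no 8-cell array was above the 40th percentile there, so the size depends on the added 16.

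On that array, the brightest probe set of Slc40a1 lay 2.15 log2 units under the lowest of the other blastocyst arrays, and the other probe set 1.48 units. None of the other 13273 tested genes had as large a gap below the other 3 on blastocyst replicate 4 or on any other blastocyst array, a count made after the values of Slc40a1 were seen. Genes at least 1 log2 unit below the other 3 numbered 57 on replicate 4, against 81 on replicate 1 and 35 on each of the other 2. The summed signal of the primitive endoderm markers was 31659 on that array and 29317 to 38309 over the 4, and that of the trophectoderm markers was 73369, the lowest of a range up to 82518.

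Fth1, the ferritin heavy chain whose ferroxidase site prepares iron for storage, was among the smaller differences. Probe set 1448771_a_at read 10210, 11348, 10652 and 10977 in 8-cell embryos. In blastocysts it read 7838, 6710, 6635 and 7977. All blastocyst arrays were below all 8-cell arrays, by 1.48-fold (-0.57, SE 0.14). The other probe set, 1427021_s_at, whose ID ending marks probes shared by several transcripts, was at 7092 ± 531 and 6602 ± 832 (SD, n = 4 each), overlapped between the stages and differed by -0.11 (SE 0.15). With the arrays scaled to bacterial spike-ins added at hybridisation, the difference of 1448771_a_at was -0.21. Ferritin heavy chain has many processed copies in the genome, and signal from them cannot be told apart here.

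**Figure D3:**
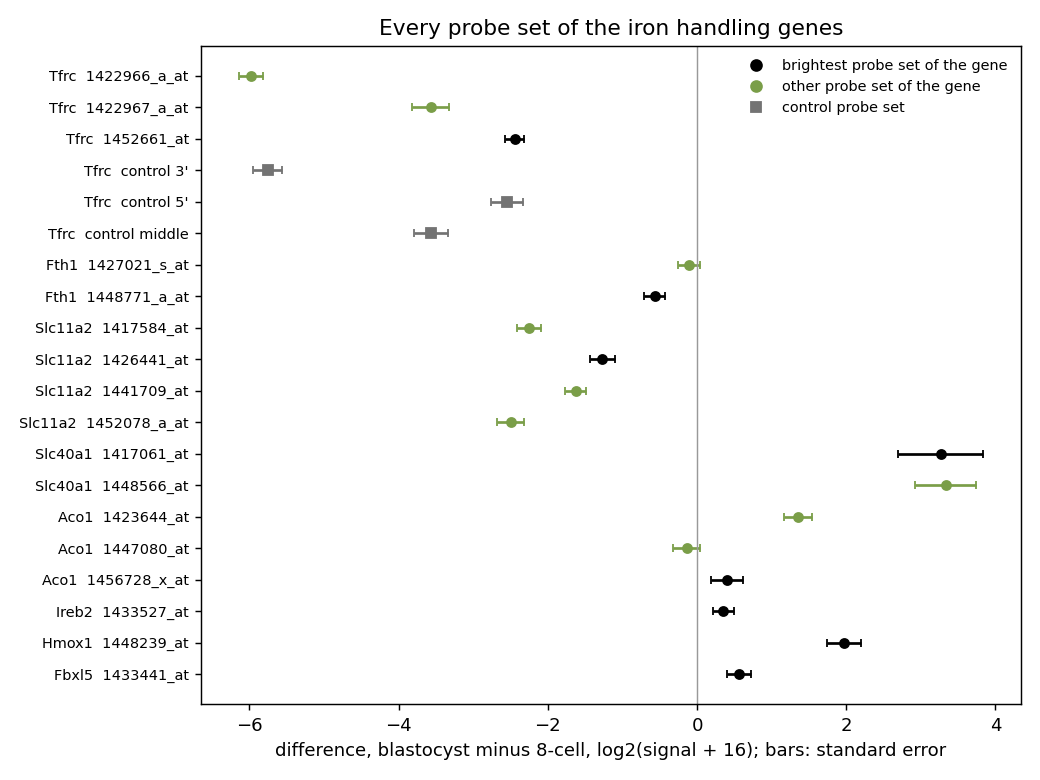
Difference between the stages for every probe set of the members, as blastocyst less 8-cell log2(signal + 16), bars showing the standard error; black marks the brightest probe set of a gene, green the others and grey squares the Tfrc controls. Tfrc and Slc11a2 lie left of 0 and Slc40a1 and Hmox1 right of it with each probe set, while the probe sets of Aco1 run from -0.14 to 1.35.

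Among the sensors of iron, Aco1 gave no single answer. Aco1 encodes IRP1, which works as a cytosolic aconitase while it holds an iron-sulphur cluster and as an RNA-binding protein without it. Its brightest probe set, 1456728_x_at, read 1738, 2449, 1781 and 1652 in 8-cell embryos and 1820, 2239, 3039 and 3063 in blastocysts. The stages overlapped (0.40, SE 0.21). Probe set 1423644_at read 430, 443, 434 and 669 and then 1081, 1251, 1247 and 1512, with no overlap (1.35, SE 0.19), and 1447080_at was dim and overlapped (34.5 ± 10.1 and 29.6 ± 6.36, SD, n = 4 each). The ID ending _x_at marks probes that may bind other messengers as well, so the brightest probe set is not the surest for this gene.

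Ireb2, encoding IRP2, read 1360, 1180, 1168 and 1495 in 8-cell embryos and 1784, 1600, 1676 and 1563 in blastocysts. The stages did not overlap, though the highest 8-cell array came close to the lowest blastocyst array, and the difference was 0.35 (SE 0.14). Fbxl5, the ubiquitin ligase subunit that holds iron and targets IRP2, read 401, 457, 502 and 514 and then 785, 559, 709 and 752 (0.56, SE 0.16). The arrays of blastocysts were again all higher, from 469 ± 51.4 to 701 ± 99.7 in the means (SD, n = 4 each). With quantile normalization Fbxl5 differed by 0.30, and with the spike-in scaling by 0.91. The median of all tested genes stood at 0.02 on the deposited scale, -0.01 after quantile normalization, 0.09 with equal medians and 0.34 with the spike-ins, so the differences of Fth1, Ireb2 and Fbxl5 are of the size that scaling moves.

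Hmox1, the inducible haem oxygenase that frees iron from haem, was dim at the 8-cell stage. It read 35.1, 36.8, 42.1 and 56.9 there, and 277, 148, 181 and 270 in blastocysts. All 8 signals were above the 40th percentile of their array. The means of 42.7 ± 9.91 and 219 ± 64.3 (SD, n = 4 each) had a ratio of 5.13, and the log2 difference was 1.97 (SE 0.22), or 2.31 with 1 added in place of 16 and 1.38 with 64. Its blastocyst arrays formed a higher pair (replicates 1 and 4) and a lower pair (replicates 2 and 3).

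The genes most like Tfrc over the 8 arrays, by Pearson's r of the log2(signal + 16) values among tested genes, were Timm8a2 (0.9996), Btbd18 (0.9994), Wdr70 (0.9993), Rusc1 (0.9992) and Tor1b (0.9991). They were lower in blastocysts by log2 -2.38 (Tor1b) to -5.04 (Btbd18). In all 3082 genes, 23.2% of those tested, had an r over 0.9 with Tfrc. With 2 stages such an r mostly reads the stage difference, and it is given as a description.

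Around the members, 97 other genes of iron metabolism were listed by role. Of these 89 had a probe set of their own and 79 were bright enough to be tested. In blastocysts 40 rose, 20 fell and 19 did not pass (adjusted p under 0.05, limma). Together 75.9% were called, against the 71.7% over all genes given above, and the median difference was 0.40 against 0.02 over all tested genes. Over all genes 37.5% were called higher and 34.2% lower. Each count of a list below stands beside these shares, and no list was tested against them. With the spike-in scaling 45 rose and 10 fell, and the share of calls that were higher moved from 52.3% to 65.4% over all genes and from 66.7% to 81.8% in these lists. The lists were drawn up with earlier results of these arrays known.

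**Figure D4:**
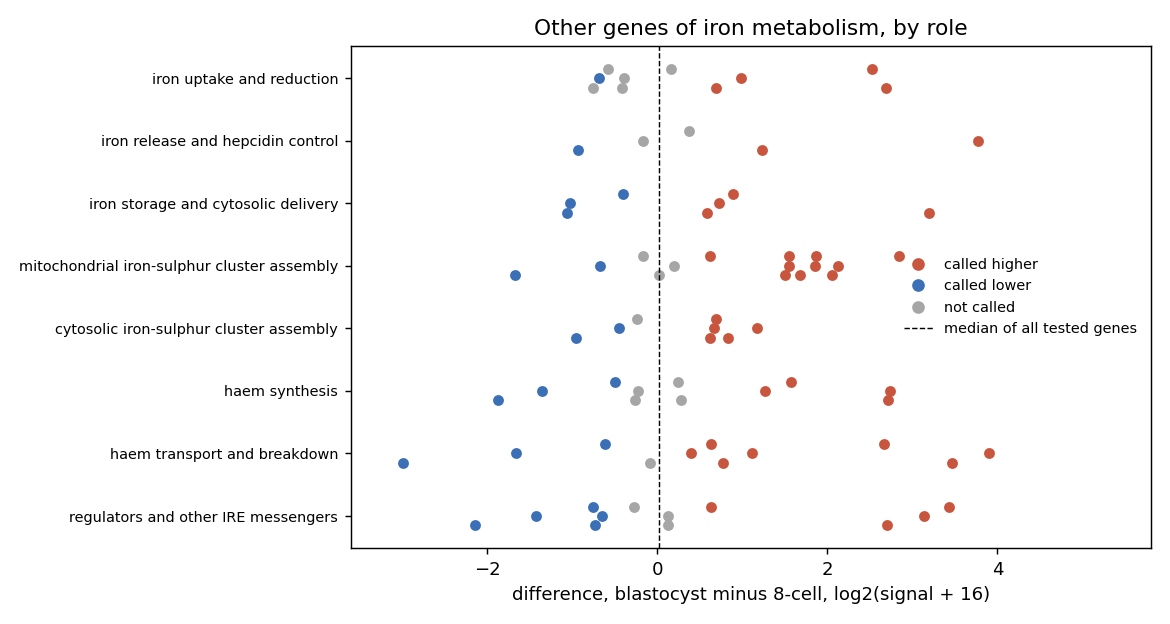
Stage difference of the 79 tested genes of iron metabolism outside the member set, by role, on the log2(signal + 16) scale; red, blue and grey points are called higher, called lower and not called, and the dashed line is the median of all tested genes, 0.02. Mitochondrial iron-sulphur cluster genes lie mostly to the right, 10 of 15 called higher, against 37.5% of all tested genes.

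Mitochondrial iron import and iron-sulphur cluster assembly, which builds the cofactors of respiratory complexes, held the largest number of rises and also the most tested genes. Of 15 tested genes 10 rose, 2 fell and 3 did not pass, with a median of 1.54. Bola3, an assembly factor, rose from 376 ± 92.8 to 2744 ± 223 (SD, n = 4 each; 2.84, SE 0.17, adjusted p = 4.75e-07 by limma). The mitochondrial iron importer Slc25a37 (mitoferrin-1) rose by 2.13 (SE 0.15). It was under the 40th percentile on each 8-cell array and passed the filter through the blastocyst arrays alone. Its call is thus not read as a test, though it is counted among the 10. Ndufab1, the acyl carrier protein, and the glutaredoxin gene Glrx5 rose by 2.06 (SE 0.16) and 1.87 (SE 0.15). Of the dimmer probe sets of Ndufab1, those not called gave -0.32 and 0.35. The importer relative Slc25a28 (mitoferrin-2) went the other way, from 3562 to 1119 in the means (-1.67, SE 0.15). It and Fdx1 (-0.67) were the genes that fell, both named after their values were seen. With the cytosolic part of the pathway, which supplies clusters to the cytosol and nucleus, 5 of 8 tested genes rose, 2 fell and 1 did not pass (median 0.65). Ciapin1 rose by 1.17 (SE 0.10), while its dimmer probe sets gave 0.79, 0.15 and -0.27, the last 2 not called. Mms19 rose by 0.84 (SE 0.11) and Nubp1 by 0.69 (SE 0.17), and Ciao3 fell by 0.96 (SE 0.12).

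Haem synthesis, which places iron in protoporphyrin, was mixed. Of 11 tested genes 4 rose, 3 fell and the other 4 did not pass (median 0.25). Tmem14c, a porphyrin transporter, rose from 858 ± 85.0 to 5822 ± 777 (SD, n = 4 each; 2.73, SE 0.14, limma adjusted p = 1.64e-07). Ppox rose by 2.72 (SE 0.18), from above the 40th percentile on 1 of 4 8-cell arrays, but its other probe sets gave 0.17 and -0.01 and were not called. Alad, which joins the first pyrroles, gave opposite directions on its probe sets, 1.57 (SE 0.17) on the brightest and -2.05 (SE 0.23) on another. Slc25a38, a mitochondrial glycine carrier, fell by 1.87 (SE 0.14).

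Of 11 tested genes of haem transport and breakdown 7 rose, 3 fell and 1 did not pass (median 0.63). The biliverdin reductase genes Blvra and Blvrb, which act on the product of haem oxygenase, rose by 3.47 (SE 0.16) and 2.66 (SE 0.32), and the transporter gene Abcg2, which can export porphyrins, by 3.90 (SE 0.18), from 42.3 ± 14.4 to 835 ± 73.0 (SD, n = 4 each). Flvcr1, encoding a haem exporter, fell from 836 ± 232 to 88.4 ± 8.86 (-2.99, SE 0.20), and by less on another probe set (-0.88, SE 0.24). The constitutive haem oxygenase gene Hmox2, named after its value was seen, rose by 0.40 (SE 0.15, limma adjusted p = 0.0345).

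Among genes of uptake and iron reduction outside the members, 4 of 10 tested rose, 1 fell and 5 did not pass (median -0.12). The lysosomal channel gene Mcoln1 rose by 2.69 (SE 0.25), the ferritin receptor gene Scara5 from under the 40th percentile on every 8-cell array to 158 ± 53.4 (SD, n = 4; 2.52, SE 0.27), and the metal importer genes Slc39a14 and Slc39a8 by 0.69 (SE 0.11) and 0.98 (SE 0.37). Other probe sets of Slc39a14 gave 1.78, 1.43 and -0.16, the last of them not called. Scara5 passed the filter through the blastocyst arrays alone, so its call is not read as a test. Another probe set of Scara5, under the 40th percentile on all 8 arrays, gave -0.76. Slc39a8 was above that level on 1 of 4 8-cell arrays, and its stages overlapped. The endosomal ferrireductase gene Steap3, the usual partner of Tfrc and Slc11a2, was at 364 and 263 in the means (-0.42, SE 0.21, limma adjusted p = 0.103). The fallen gene was Tfr2, encoding the second transferrin receptor (-0.68, SE 0.17, limma adjusted p = 0.00582). Steap3 and Tfr2 were named after their values were seen.

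Of iron release and the control of hepcidin, the hormone that closes ferroportin, 5 of 11 genes were tested and 6 were too dim, among them the ferroxidase genes Heph and Cp, whose products partner the exporter. Neo1, encoding the co-receptor neogenin, rose by 3.78 (SE 0.31) and on one of its other probe sets did not differ past the test (-0.09), Prnp rose by 1.23 (SE 0.15; 0.75 and not called on another probe set), and Bmp6 fell by 0.93 (SE 0.24) with stages that overlapped. Heph and Cp were named after their values were seen. In storage and cytosolic delivery all 7 tested genes passed, 4 higher and 3 lower (median 0.58), where 71.7% of all genes were called. The ferritin heavy-like gene Fthl17a rose from 43.5 ± 9.58 to 535 ± 109 (SD, n = 4 each; 3.20, SE 0.18), and Ncoa4, the receptor that sends ferritin to the lysosome, by 0.90 (SE 0.12), with 0.44 on another probe set, which was not called. Bola2 and Glrx3, partners in cytosolic iron delivery, fell by 1.02 (SE 0.17) and 1.06 (SE 0.14). Of the other 4 probe sets of Bola2, 3 were lower (-0.78 to -1.52) and 1 gave 0.36 and was not called.

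Of 12 tested regulators and further messengers known to carry an IRE, 4 rose, 5 fell and 3 did not pass (median -0.07). Nfe2l2, the factor that drives Hmox1 and ferritin genes, rose from 346 ± 93.3 to 2278 ± 156 (SD, n = 4 each; 2.70, SE 0.18, limma adjusted p = 8.64e-07), with 0.71 on a dimmer probe set, which was not called. Bach1, the repressor of the same genes that haem releases from DNA, fell by 0.76 (SE 0.12). Mafg, a small partner of both, fell by 2.14 (SE 0.12), and by less on another probe set (-1.04, SE 0.17). Bach1 was named after its value was seen. Hif1a rose by 3.14 (SE 0.22). Tfrc is a known target of its product, and a link between the signals of these genes was not tested. Cdc14a, some transcripts of which carry an IRE, rose by 3.43 (SE 0.24). Other probe sets of Cdc14a gave 1.21 and 0.96, and which transcripts each reads was not analysed here.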

How the data were processed

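The deposited values are signal intensities on a linear scale, 1 value per probe set and array (45101 probe sets, 8 arrays). RNA was isolated with the PicoPure kit and amplified by a small-sample labelling assay before hybridisation, per the labels' protocols. The software behind the intensities: not given in the sources used here. Values show a common mean of 500 on each array without the outer 2%, and 1 decimal in all 8-cell columns against under 0.4% of blastocyst values, so handling and stage cannot be told apart.

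Values became log2(signal + 16). The 64 control probe sets stayed out of gene tests. Of the others 34945 had 1 gene symbol, 932 several and 9160 were not listed; gene IDs looked up in RefSeq's gene list for GRCm38.p6 changed 0 symbols. A gene took its probe set with the highest mean, and genes whose signal exceeded an array's 40th percentile on 4 or more of the 8 were tested with limma (lmFit, eBayes), Benjamini-Hochberg adjustment and a threshold of 0.05. A gene could pass that filter through the arrays of a single stage. Member differences and SEs come from the same limma fit to all probe sets without a filter, as do those of further probe sets of other iron genes. An exact permutation test of the Tfrc control 3' minus 5' measure was planned and is not given, since that measure is made from the Tfrc control levels. The method was tested on simulated data.

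Members, lists and tests were chosen with earlier results of these data known. Genes named by rule are the members, the 4 called genes with the largest difference in each list, and the 5 most like Tfrc. Slc25a28, Fdx1, Hmox2, Steap3, Tfr2, Heph, Cp and Bach1 were named outside that rule, after their values were seen. Alternatives covered scaling, filter, probe sets, variance model, array weights, replicate block, pseudocount and each array left out. R 4.3.3, limma 3.58.1, Python 3.11.15 and matplotlib 3.10.9 were used.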

Additional observations from a re-analysis of the deposited data

Results flagged for a closer look

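In 108 groups of 4 arrays looked at on the log2 scale (member probe sets, named genes and Tfrc control differences), 5 held an array that stood apart, where chance flags about 1 group in 20. The number after each is the gap of that array to its nearest neighbour as a share of the group's range, which exceeds Dixon's critical value for 4 samples. For Aco1 probe set 1423644_at, 8-cell replicate 4 read 669 against 430 to 443 on the others (0.931). For Aco1 probe set 1447080_at, 8-cell replicate 3 read 49.6 against 28.1 to 31.0 (0.840). For the 5' control probe set of Tfrc, 8-cell replicate 3 read 79.1 against 130 to 142 (0.837). For Neo1, 8-cell replicate 4 read 42.7 against 132 to 152 (0.879). For Glrx5, blastocyst replicate 3 read 6123 against 6583 to 6679 (0.833). The low Slc40a1 signal on blastocyst replicate 4 did not pass this criterion.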

How the results depend on the processing

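With hybridisation spike-in scaling 2972 genes were called lower and 10 of the other iron genes, against 4539 and 20 on the deposited scale. Under all other settings run the 4 counts of calls stayed within 1.5 times, and the members' differences kept their direction in every setting run. Fth1 gave none without _x_at, _s_at and _a_at probe sets. Tfrc moved to -2.09 with the spike-ins, to -2.31 with quantile normalization and to -4.00 with the mean of its probe sets, and Slc11a2 to -0.92 and -1.91 with the first and last of these. Averaging its probe sets moved Fth1 to -0.34, and quantile normalization to -0.38. Aco1 gave 0.75 with the spike-ins and 1.35 without _x_at, _s_at and _a_at probe sets. Ireb2 gave 0.70 with the spike-ins. The cause of these shifts was not tested. The Tfrc control 3' minus 5' difference ran from -3.63 to -2.11 over 13 settings. The replicate numbers did not pair the stages: deviations of same-numbered arrays correlated at -0.035 to -0.024. With the replicate number as a block 4862 genes were higher and 4412 lower, and 39 and 19 of the other iron genes.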
